A study of Homo sapiens with 6 samples.

Results

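The genes described here are 50 human genes that license and fire replication origins, unwind and copy DNA at the fork, and drive entry into S phase through E2F and cyclin E. They were chosen by name from those functions, with earlier results of these data known. All 50 were found among the 60683 gene rows of the count table, and all 50 passed the filter on low counts that left 15846 genes for testing. RNA was sequenced from 143B cells, an established human osteosarcoma line, in 6 libraries: 3 from cells given PBS (phosphate-buffered saline, the control) and 3 from cells given TPBC-PEG, both for 24 h. The sample titles give the dose of TPBC-PEG as 3 µM and the treatment protocol as 300 µM. The series title and design text tie the agent to photodynamic therapy, in which a light-absorbing compound is excited by light, and the sources used here do not say whether these cells were lit. The question put to the genes is how their mRNA levels differed between TPBC-PEG and PBS.

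Replication is set up before it starts. The origin recognition complex (ORC) marks origins, CDC6 and CDT1 load the ring-shaped MCM2-7 helicase onto DNA while geminin (GMNN) restrains CDT1, and the kinase CDC7 with DBF4 then turns the loaded ring into the working CMG helicase (CDC45, MCM2-7 and GINS). Polymerase alpha and primase start each new strand, replication factor C (RFC) loads the sliding clamp PCNA, and polymerases delta and epsilon extend. Most of these genes are transcribed as cells pass from G1 into S phase, many of them under E2F transcription factors, whose own activity is released when cyclin E and CDK2 inactivate the RB family.

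Because many of these genes are classic E2F targets, stretches around E2F-type motifs in some of their promoters are shown first. RefSeq promoter windows (GRCh38.p14, from 250 bases before to 50 bases after the start of the gene) were matched by symbol for 45 of the 50 genes, all but MCM4, MCM5, GINS4, POLD3 and CCNE2. Each line is written 5′ to 3′ on the strand of its gene, and the capitals mark a motif of 8 bases, TTTCCCGC, TTTCGCGC, TTTGCCGC or TTTGGCGC, or its reverse complement. Of the 14 genes with a match before the start, RFC3, POLE and LIG1, which also fell, are not shown. A further match each in MCM3 and MCM7 is not shown either. The first 8 genes fell with TPBC-PEG and the last 3 (E2F2, POLA2 and ORC3) did not pass the test, and stretches that an annotated exon of the gene also covers were kept to 30 bases or fewer.
GINS2: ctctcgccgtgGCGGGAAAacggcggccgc
POLA1: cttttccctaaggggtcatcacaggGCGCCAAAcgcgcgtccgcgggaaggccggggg
PCNA: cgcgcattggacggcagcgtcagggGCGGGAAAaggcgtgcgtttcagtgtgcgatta
MCM6: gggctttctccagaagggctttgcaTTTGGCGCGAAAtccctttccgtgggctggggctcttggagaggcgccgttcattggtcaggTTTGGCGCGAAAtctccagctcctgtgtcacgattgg
MCM3: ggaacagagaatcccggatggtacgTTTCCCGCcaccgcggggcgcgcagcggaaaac
CDT1: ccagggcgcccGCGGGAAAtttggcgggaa
MCM7: ggggggcgacgTTTCGCGCc
E2F1: tttcGCGGCAAAaaggaTTTGGCGCgtaa
E2F2: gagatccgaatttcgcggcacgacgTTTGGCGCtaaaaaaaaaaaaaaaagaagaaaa
POLA2: ttggctcccggTTTCGCGCatgcgtgcact
ORC3: cgcgagggcgcGCGGGAAAtccc

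In MCM6 the motif occurred as 2 copies of the same 12 bases, TTTGGCGCGAAA, in which a match on each strand overlaps the other by 4 bases. E2F1, which encodes an E2F factor, carried 2 matches in its own window, 1 on each strand. The stretches lie at chr16:85688967-85688996 (- strand, GINS2), chrX:24693756-24693813 (+ strand, POLA1), chr20:5126649-5126706 (- strand, PCNA), chr2:135876497-135876620 (- strand, MCM6), chr6:52284884-52284941 (- strand, MCM3), chr16:88803743-88803772 (+ strand, CDT1) and chr7:100101398-100101417 (- strand, MCM7). Those of the other genes lie at chr20:33686394-33686422 (- strand, E2F1), chr1:23531243-23531300 (- strand, E2F2), chr11:65261898-65261927 (+ strand, POLA2) and chr6:87590112-87590134 (+ strand, ORC3). In the plot of motif positions, matches lay from well upstream (MCM7) to just after the start (MCM8), and both called and uncalled genes had them close to the start. These matches are letters in a window and not measured binding.

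**Figure D1:**
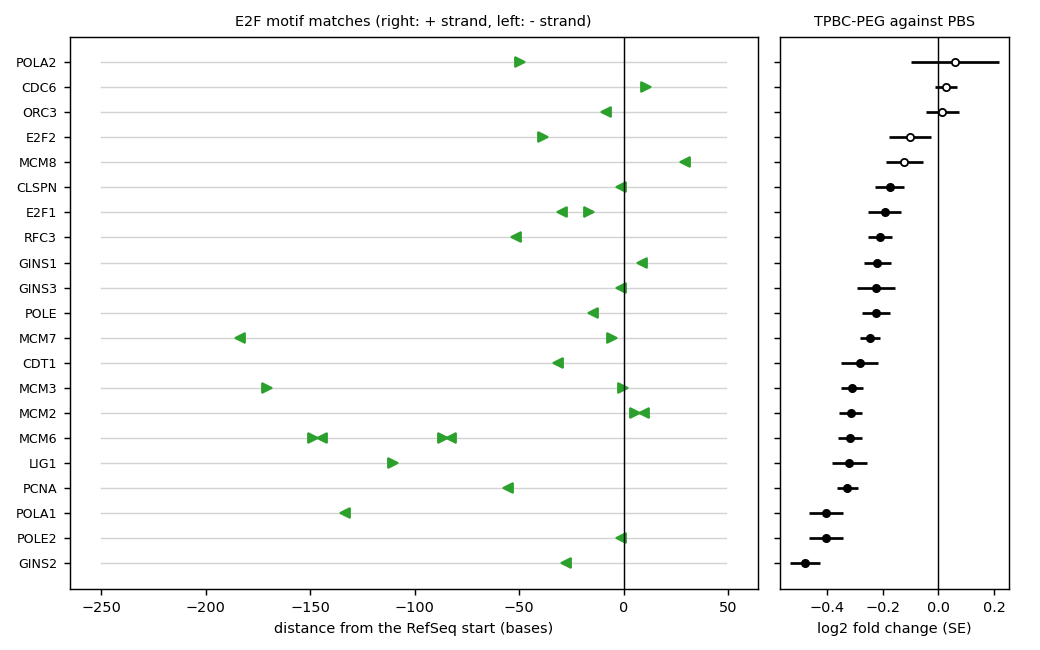
Left, position of each E2F-type motif match in the 21 promoter windows that hold one, in bases from the RefSeq start of the gene, with the arrow giving the strand. Right, log2 fold change of the same gene, TPBC-PEG against PBS, as point and standard error (SE), filled where the adjusted p was under 0.05. Genes are ordered by fold change, from GINS2 at -0.48 to POLA2 at 0.06, and 16 of the 21 were called lower.

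The motif was found in 21 of the 45 windows (46.7%), against 609 of 11331 windows of tested genes (5.37%) and 908 of 27305 RefSeq windows (3.33%). With only the 250 bases before the start, it was found in 14 of the 45 (31.1%), against 4.46% of the windows of tested genes. The window of CDC6 held its match at positions 7 to 14, with the first base of the gene counted as 0. Of the 21 genes with a match, 16 fell (76.2%) with a median log2 fold change of -0.22, and of the 24 without one, 13 fell (54.2%) with a median of -0.18. Among tested genes other than the 50, 135 of 588 with a match fell (23%) and 2004 of 10698 without one (18.7%). The difference between genes with and without a match was not tested. The CCAAT box (CCAAT on either strand) was in 25 of the 45 windows (55.6%), against 36.4% of the windows of tested genes, and both the PCNA and MCM6 stretches above contain it on the opposite strand (attgg). The CHR element of late cell cycle genes (TTTGAA or TTCGAA on either strand) was in 2 of the 45 (4.44%, MCM6 and DBF4), against 11% of the windows of tested genes.

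Replication genes were lower after TPBC-PEG across nearly every step, by small amounts. By edgeR's quasi-likelihood test with Benjamini-Hochberg adjustment over all 15846 genes, 34 of the 50 fell at an adjusted p under 0.05, 0 rose and 16 were not called. Of all tested genes, 33.2% were called in either direction, 16.9% lower and 16.2% higher; with scaling by library size alone the counts over all genes shifted from 2682 lower and 2574 higher to 1971 and 3213. The median log2 fold change of the 50 was -0.23, with quartiles at -0.32 and -0.12, beside a median of 0.01 over all tested genes. The extremes were GINS2 at -0.48 and POLA2 at 0.06, and 11 fell past 1.25-fold. None reached a 1.5-fold change, and a test against that size called 0 of the 50 lower, beside 0.0884% of all tested genes. No gene of the 50 had a positive fold change with an unadjusted p under 0.05 either, and DESeq2 and limma-voom also called 0 higher. In 38 of the 50 the groups did not overlap, beside 43.4% of all tested genes, and in each of the 38 the PBS values were the higher, beside 21.4%.

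Most of the 50 genes are well expressed, and small changes are easier to call at such depth. Reads per gene and library ran from 78 to 7590, with POLA2 the lowest at 78 to 105. Among the 2287 tested genes with PBS levels between 56.8 and 122 CPM (counts per 1e6 reads, scaled by TMM library factors), the quartiles of the 50, 31.7% were called lower and 19.2% higher, with a median of -0.04. The summed level of the 50 was 4975, 5122 and 5088 CPM with PBS and 4312, 4259 and 4373 CPM with TPBC-PEG, so the groups did not overlap. Other annotated genes share more than 10% of the exon length of 8 of the 50 (MCM2, GINS3, GINS4, RFC5, POLA2, PRIM1, TIPIN and CCNE2), whose reads could be split or shared in counting. In bulk RNA, fewer cells in S phase and less of each mRNA per cell cannot be told apart. The labels do not state separate cultures for the replicates, so every p-value here is set against a spread between libraries that may be only technical.

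**Figure D2:**
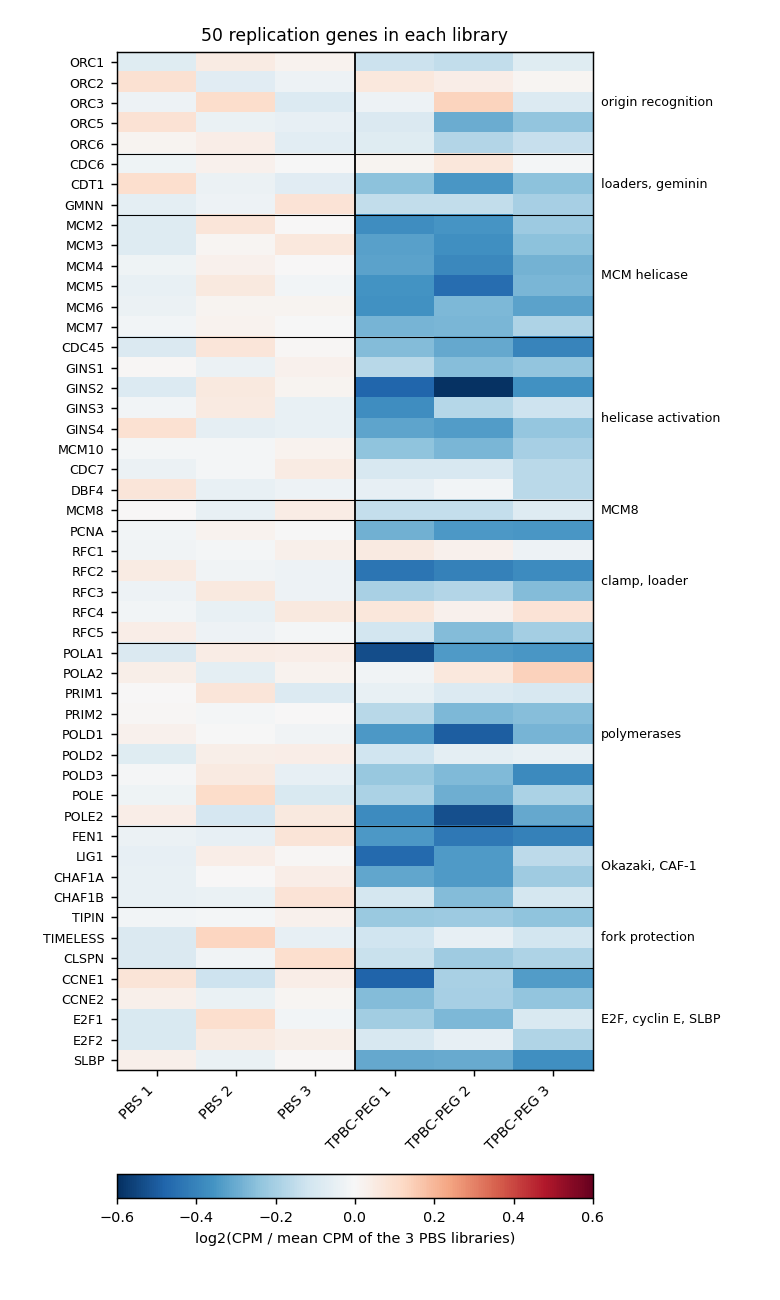
Each row is 1 of the 50 genes, grouped by role, and each column 1 library; colour gives log2 of the CPM over the mean CPM of the 3 PBS libraries. The TPBC-PEG columns are mostly blue (lower), with CDC6, RFC1, RFC4, ORC2 and ORC3 close to white in all 6 libraries.

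Total counts ran from 15726323 to 20486584 per library, and no library stood apart in the summed level of the 50 genes. Of the markers of a bone-derived line, VIM had 37992 to 49653 counts per library and SPARC 6096 to 7661. RUNX2 had 281 to 529 counts, COL1A1 343 to 540, SPP1 291 to 662, ALPL 76 to 90 and COL1A2 0 to 2. The epithelial markers CDH1 and KRT19, the blood markers PTPRC and CD3E and the endothelial markers PECAM1 and CDH5 had between 0 and 6 counts per library, while EPCAM had 240 to 356.

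Origin recognition changed little. ORC binds origin DNA and, with CDC6, forms the platform for helicase loading, and of the 5 subunits among the 50 genes 1 fell; ORC4, from the list of S-phase partners, was not called (-0.09 ± 0.063, adjusted p = 0.297). ORC5 gave 37.5, 34.4 and 34.2 CPM with PBS and 33.3, 28.8 and 30.0 CPM with TPBC-PEG, a log2 fold change of -0.21 ± 0.070 (SE) with an adjusted p of 0.0188. Its groups did not overlap, but the nearest values lay within 1 CPM, and the call ended when PBS replicate 1 was left out (adjusted p = 0.102), when replicate 2 (0.138) or 3 (0.0602) of TPBC-PEG was, and with scaling by library size alone (0.0744). ORC1, the subunit that recruits the others to chromatin in G1, gave 71.4, 77.7 and 76.4 CPM with PBS and 68.8, 67.8 and 71.6 CPM with TPBC-PEG, and its groups overlapped by a narrow margin. Its log2 fold change of -0.12 ± 0.051 had an adjusted p of 0.0745. ORC6 gave 67.0, 68.1 and 63.4 CPM against 62.8, 58.5 and 60.2 CPM, with no overlap, and its adjusted p was 0.0553. Leaving out PBS replicate 1 brought ORC1 past the threshold (0.024), and leaving out PBS replicate 3 did so for ORC6 (0.0319). ORC2 (0.04) and ORC3 (0.01) had log2 fold changes near 0.

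The loaders did not move together. CDC6, the ATPase that closes the loading platform, was measured at 149.6, 155 and 152 CPM with PBS and 154, 159.5 and 151 CPM with TPBC-PEG. The 2 sets of values interleave, and the log2 fold change was 0.03 ± 0.040 with an adjusted p of 0.665. CDT1, which brings MCM2-7 to the platform, was measured at 43.1, 39.2 and 38.3 CPM with PBS and 33.9, 31.5 and 33.9 CPM with TPBC-PEG. All PBS values of CDT1 lay above all TPBC-PEG values, and it fell by 17.8% (log2 fold change -0.28 ± 0.066, adjusted p = 0.000646). GMNN, whose product geminin binds CDT1 and blocks reloading, was measured at 40.6, 41.4 and 44.8 CPM against 38.1, 38.1 and 36.7 CPM. GMNN was called lower at -0.16 ± 0.063 (adjusted p = 0.0407) with no overlap, but that call was lost by DESeq2 (0.0748), with no filter on low counts (0.054), with scaling by library size alone (0.149) and without any 1 of PBS replicate 3 (0.183) or TPBC-PEG replicates 1, 2 and 3 (0.0773, 0.0777 and 0.104).

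The MCM2-7 helicase fell as a whole. All 6 subunit genes were called lower, with a median log2 fold change of -0.32 and a span from -0.36 for MCM5 to -0.25 for MCM7. Of all tested genes, 16.9% were called lower. The shares given above for genes between 56.8 and 122 CPM do not cover these 6, which lay between 127 CPM (MCM5) and 403 CPM (MCM4) with PBS. With the trend over expression level removed all 6 were still called, but the span was -0.32 (MCM5) to -0.16 (MCM7). MCM5 (chr22:35400063-35425430, + strand) gave 123, 132 and 125 CPM with PBS and 98.8, 92.3 and 105 CPM with TPBC-PEG, a log2 fold change of -0.36 ± 0.047 (adjusted p = 1.43e-08). MCM3 gave 330.5, 353 and 365 CPM against 279, 271 and 294 CPM, or -0.31 ± 0.039 (adjusted p = 9.88e-09). For both genes the lowest PBS value lay well above the highest TPBC-PEG value. MCM2, the subunit that also binds histones, gave 239, 264 and 252 CPM against 194, 197 and 216 CPM, or -0.31 ± 0.042 (adjusted p = 7.58e-08). Genes on the opposite strand share 23.6% of the exon length of MCM2, and how the counting treated strand is unknown. MCM4 (-0.33 ± 0.037), MCM6 (-0.32 ± 0.042) and MCM7 (-0.25 ± 0.037) also fell with no overlap, at adjusted p-values of 3.82e-10, 2.87e-08 and 4.53e-07. The 6 subunits differ in level although the ring holds 1 copy of each. Per kilobase of exon, MCM3 was at 95.7 ± 4.75 CPM with PBS (SD, n = 3), MCM7 at 88.4 ± 1.18 and MCM5 at 17.3 ± 0.646. Per kilobase of the longest transcript they were at 109, 126 and 27.5 CPM, so the size of the gap depends on the length used.

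Helicase activation held the largest fall of the 50. GINS2 (chr16:85676198-85690073, - strand), a subunit of the GINS complex that joins CDC45 and the MCM ring, was measured at 85.1, 93.8 and 91.0 CPM with PBS and 64.6, 59.6 and 70.0 CPM with TPBC-PEG. The groups are separated by a wide gap, and GINS2 fell by 28.2% (log2 fold change -0.48 ± 0.054, adjusted p = 7.36e-10). The other GINS genes fell less, GINS4 at -0.30 ± 0.055, GINS3 at -0.22 ± 0.068 and GINS1 at -0.22 ± 0.049. GINS3 missed the threshold without TPBC-PEG replicate 1 (adjusted p = 0.131). CDC45 fell at -0.32 ± 0.059 (adjusted p = 2.38e-05). MCM10, which is needed to turn the assembled helicase into an active one, gave 123, 123 and 126 CPM with PBS and 105, 102 and 108 CPM with TPBC-PEG, and it was called lower at -0.24 ± 0.043 (adjusted p = 1.66e-05) with no overlap. The kinase that triggers the step was not called. CDC7 was measured at 71.1, 72.1 and 75.2 CPM against 68.1, 68.2 and 65.0 CPM, which do not overlap but differ by only -0.12 ± 0.051 (adjusted p = 0.076). Its activator DBF4 was at -0.07 ± 0.051 (adjusted p = 0.293). MCM8, a relative of the MCM ring that works in recombination, gave 35.6, 34.5 and 36.7 CPM against 32.2, 32.2 and 33.7 CPM, with no overlap and an adjusted p of 0.157.

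**Figure D3:**
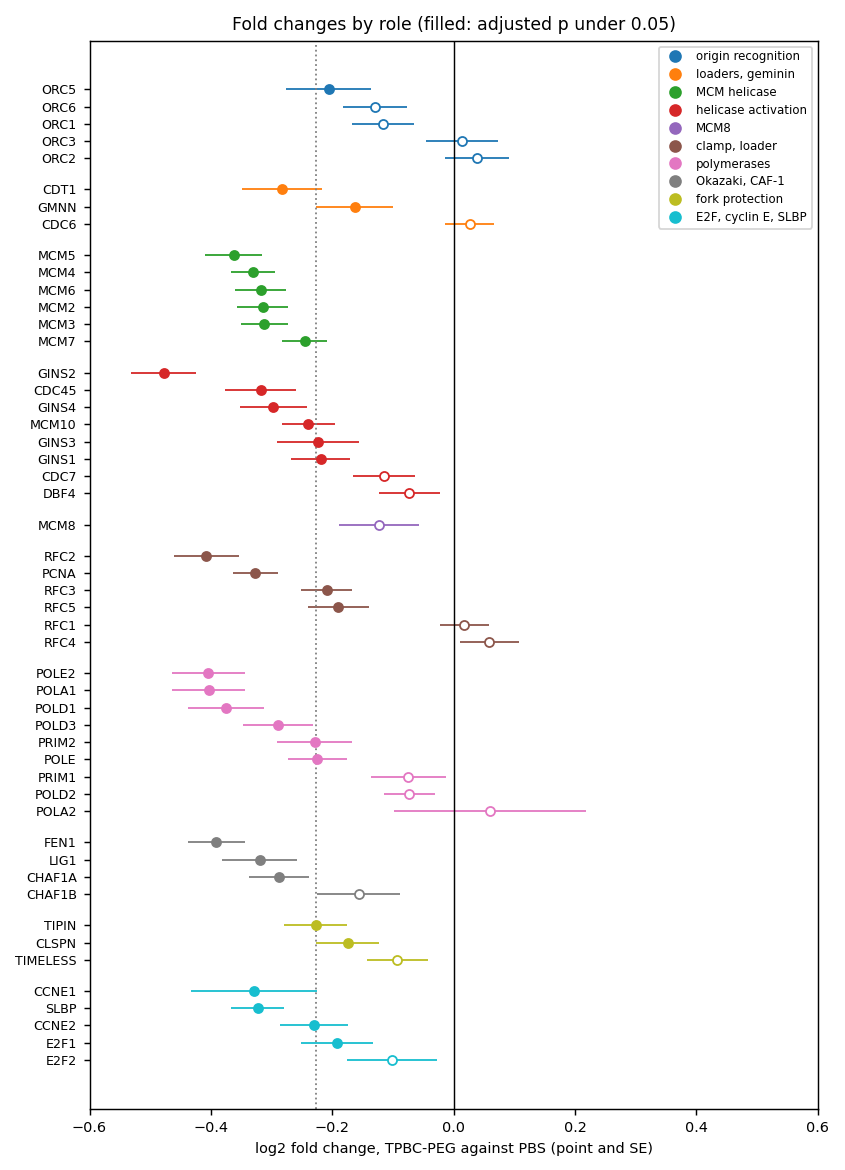
Log2 fold change of each of the 50 genes, TPBC-PEG against PBS, as point and SE, grouped and coloured by role and ordered by fold change within a role; filled points had an adjusted p under 0.05 and the dotted line is the median of the 50, -0.23. All 6 MCM helicase points are filled and lie between -0.36 and -0.25, and none of the 6 points right of 0 is filled.

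The sliding clamp fell while its loader split. PCNA (chr20:5114953-5126626, - strand), the ring that tethers polymerases to DNA, gave 258, 264 and 259.9 CPM with PBS and 213, 205 and 205 CPM with TPBC-PEG. Its replicates lay close together and did not overlap between groups, and it fell by 20.3% (log2 fold change -0.33 ± 0.038, adjusted p = 8.91e-10). RFC2 (chr7:74231499-74254458, - strand), a small subunit of the clamp loader, gave 71.0, 67.4 and 67.1 CPM against 50.5, 51.8 and 52.8 CPM, and it fell by 24.6% (-0.41 ± 0.054, adjusted p = 2.8e-08). RFC4, another small subunit, was measured at 79.2, 77.7 and 83.3 CPM with PBS and 84.1, 81.4 and 84.7 CPM with TPBC-PEG, an overlapping set with a log2 fold change of 0.06 ± 0.048 (adjusted p = 0.388). RFC3 (-0.21 ± 0.042) and RFC5 (-0.19 ± 0.051) fell, and RFC1, the large subunit, was at 0.02 ± 0.041 (adjusted p = 0.788). The log2 ratio of RFC2 to RFC4 was -0.23 ± 0.079 with PBS (SD, n = 3) and -0.69 ± 0.042 with TPBC-PEG. That ratio was picked after its values were seen and was not tested.

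Of the 9 polymerase genes 6 fell. POLE2, the second subunit of the leading-strand polymerase epsilon, was measured at 61.6, 55.9 and 62.6 CPM with PBS and 46.2, 41.7 and 48.5 CPM with TPBC-PEG, a log2 fold change of -0.40 ± 0.060 (adjusted p = 4.45e-07). POLA1, the catalytic subunit of the initiating polymerase alpha, was measured at 54.7, 60.1 and 59.7 CPM against 40.2, 46.0 and 45.7 CPM, also -0.40 (SE 0.061, adjusted p = 4.62e-07). Both sets were separated by several CPM. The catalytic subunit of the lagging-strand polymerase delta, POLD1, fell at -0.38 ± 0.063, its partner POLD3 at -0.29 ± 0.057, the primase subunit PRIM2 at -0.23 ± 0.061 and the catalytic subunit of polymerase epsilon, POLE, at -0.22 ± 0.049. POLD2, the most abundant polymerase gene per length, gave 141, 152 and 153 CPM with PBS and 137, 143 and 144 CPM with TPBC-PEG. Its groups overlapped through PBS replicate 1, and the log2 fold change was -0.07 ± 0.042 (adjusted p = 0.189, and 0.0433 without that library). PRIM1 (-0.07 ± 0.062) and POLA2 (0.06 ± 0.158) were not called. POLA2 was the lowest of the 50, at 4.65 to 5.33 CPM in all 6 libraries, and another annotated gene shares 35.1% of its exon length.

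**Figure D4:**
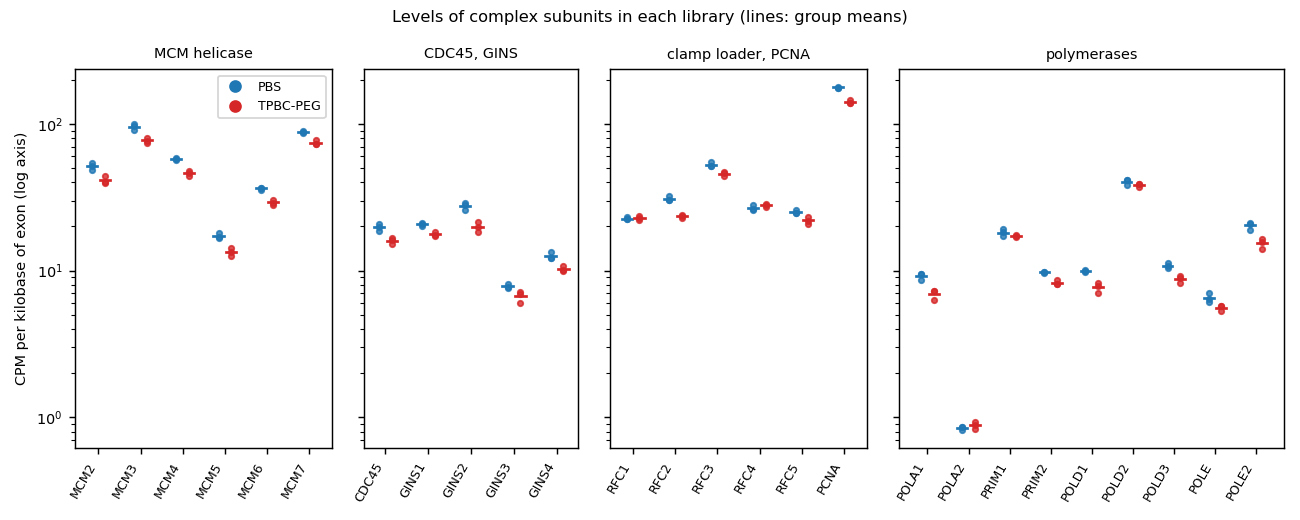
CPM per kilobase of exon (log axis) of the subunits of the MCM helicase, of CDC45 and GINS, of the clamp loader with PCNA, and of the polymerases, with 1 point per library and a line at each group mean. PCNA lies highest, at 177 with PBS and 141 with TPBC-PEG, POLA2 lowest, and RFC1 and RFC4 are the clamp loader subunits whose groups overlap.

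Okazaki fragment maturation and chromatin assembly genes fell, with 1 exception. FEN1, the nuclease that trims the flap between fragments, gave 113, 112 and 122 CPM with PBS and 90.7, 85.7 and 87.2 CPM with TPBC-PEG, and it fell by 23.7% (-0.39 ± 0.047, adjusted p = 2.01e-09). LIG1, the ligase that seals the nick, fell at -0.32 ± 0.062, and CHAF1A, the large subunit of the histone chaperone CAF-1, at -0.29 ± 0.049. Its partner CHAF1B was measured at 35.1, 35.2 and 38.4 CPM against 33.7, 30.2 and 33.7 CPM. The CHAF1B groups do not overlap, but the log2 fold change of -0.16 ± 0.068 had an adjusted p of 0.0733.

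Of the fork protection genes, TIPIN and CLSPN fell. TIPIN, which with TIMELESS keeps the helicase coupled to the polymerases, gave 70.6, 70.9 and 72.6 CPM with PBS and 61.1, 61.3 and 60.4 CPM with TPBC-PEG, a log2 fold change of -0.23 ± 0.051 (adjusted p = 0.000395). Replicates of TIPIN lay within about 2 CPM of each other, and a ribosomal protein pseudogene shares 21.0% of its exon length. CLSPN, encoding claspin, the adaptor that passes the checkpoint signal from ATR to CHK1, gave 76.7, 80.2 and 87.5 CPM against 74.3, 70.3 and 71.6 CPM, or -0.17 ± 0.052 (adjusted p = 0.00651). Without PBS replicate 3, the highest of its values, the adjusted p of CLSPN was 0.0834. TIMELESS was not called at -0.09 ± 0.050 (adjusted p = 0.159, and 0.0421 without PBS replicate 1).

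Among the genes that control S phase entry, both cyclin E genes, E2F1 and SLBP fell. CCNE1 was measured at 15.4, 13.4 and 15.0 CPM with PBS and 10.5, 12.8 and 11.6 CPM with TPBC-PEG, or -0.33 ± 0.104 (adjusted p = 0.011). Its groups came within 1 CPM of each other, and the call was lost without PBS replicate 1 (0.0531) or TPBC-PEG replicate 1 (0.0978). CCNE2 was measured at 58.9, 56.1 and 58.1 CPM against 48.3, 50.2 and 49.0 CPM, or -0.23 ± 0.056 (adjusted p = 0.000923), with genes on the opposite strand sharing 37.1% of its exon length. E2F1, an activating E2F, gave 55.8, 63.7 and 58.8 CPM with PBS and 51.3, 49.3 and 55.7 CPM with TPBC-PEG. The E2F1 groups all but touch, and the log2 fold change of -0.19 ± 0.059 (adjusted p = 0.00853) lost its call without PBS replicate 2 (0.0892), without TPBC-PEG replicate 2 (0.0873), with a GC trend removed (0.105) and with scaling by library size alone (0.0501). E2F2, a close relative, gave 25.8, 28.5 and 28.1 CPM against 25.7, 26.6 and 24.3 CPM, which overlap, with an adjusted p of 0.319. SLBP, which binds the stem-loop of histone mRNAs and is made in S phase, gave 132, 125 and 129.5 CPM with PBS and 104, 105 and 100.0 CPM with TPBC-PEG. All PBS values of SLBP lay at least 20 CPM above the TPBC-PEG values, and it fell by 20.1% (-0.32 ± 0.044, adjusted p = 4.49e-08).

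In levels per kilobase of exon with PBS, PCNA came first at 177 ± 2.38 CPM (SD, n = 3), followed by MCM3, MCM7, SLBP at 63.6 ± 1.60, MCM4 at 57.8 ± 1.02, RFC3 at 52.7 ± 1.92 and MCM2 at 51.3 ± 2.61. RFC3 and MCM2 lay within 1 SD of each other, while PCNA lay far above all others. With the length of the longest transcript in place of all exons, PCNA stayed first but MCM7 (126) came before MCM3 (109). SLBP moved from place 4 to 7, GMNN from 29 to 17 and ORC6 from 32 to 14, so the order depends on the length used. At the low end stood CCNE1 at 5.73 ± 0.419, E2F2 at 5.03 ± 0.274, MCM8 at 4.63 ± 0.142 and POLA2 at 0.846 ± 0.029. The genes that did not pass the test were found both high (POLD2 at 40.2, CDC6 at 27.4) and low in this order.

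Ratios of functional partners were compared in each library for 6 pairs by an exact two-sided permutation test, which cannot go below 0.1 with 3 against 3. The log2 ratio of CDC6 to ORC1 was 1.07, 0.99 and 0.99 with PBS and 1.16, 1.23 and 1.08 with TPBC-PEG, a difference of 0.14 with no overlap and the smallest p the exact test allows (0.1, adjusted 0.4). The log2 ratio of CDT1 to its inhibitor GMNN differed by -0.11 (exact p = 0.4, adjusted 0.5) and its groups overlapped. POLD1 to POLE differed by -0.15 (exact p = 0.2), CCNE1 to CCNE2 by -0.10 (exact p = 0.2), E2F1 to E2F2 by -0.08 (exact p = 0.5) and CDC7 to DBF4 by -0.04 (exact p = 0.5), with adjusted values of 0.4 to 0.5. No pair passed the threshold, and none could at this number of libraries.

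Other genes of S phase were read beside them, in a list of 50 partners: fork factors outside the main set, nucleotide enzymes, histone chaperones and regulators of E2F. In that list 36 fell (72.0%), 3 rose (6.0%) and 11 were not called, with a median of -0.23. Of all tested genes, 16.9% were called lower and 16.2% higher. TYMS, thymidylate synthase, fell at -0.56 ± 0.036, with other genes sharing 46.6% of its exon length. TONSL, which binds new histones at stalled forks, fell at -0.46 ± 0.074, the ubiquitin ligase subunit SKP2, which targets CDT1 and the CDK inhibitor p27, at -0.43 ± 0.043, and the maintenance methyltransferase DNMT1 at -0.41 ± 0.039. RPA1 (-0.30 ± 0.038) and RPA2 (-0.17 ± 0.047), which coat single-stranded DNA, fell too, while RPA3 was not called (0.09 ± 0.093).

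E2F7 went the other way. This atypical E2F, known as a repressor of E2F targets, gave 102, 102 and 102 CPM with PBS and 154, 158 and 152 CPM with TPBC-PEG, a log2 fold change of 0.61 ± 0.042 (adjusted p = 1.12e-16). The PBS values were all but equal and the TPBC-PEG values all stood more than 50 CPM higher. Its relative E2F8 fell (-0.28 ± 0.064), as did the E2F partner TFDP1 (-0.37 ± 0.039) and the pocket protein genes RB1 (-0.29 ± 0.051) and RBL1 (-0.29 ± 0.050). ASF1A, a histone chaperone that hands histones to CAF-1, rose from 60.5, 58.7 and 56.1 CPM to 67.3, 71.5 and 64.2 CPM (0.21 ± 0.054, adjusted p = 0.00172), while ASF1B fell (-0.32 ± 0.062). POLD4, the smallest subunit of polymerase delta, gave 2.45, 2.27 and 1.77 CPM against 3.19, 3.23 and 4.08 CPM, from 28 to 67 reads per library, with a log2 fold change of 0.67 ± 0.215 (adjusted p = 0.0124). It was not called without PBS replicate 3 (0.0768) or TPBC-PEG replicate 3 (0.0806), and another annotated gene shares 21.3% of its exon length.

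Genes of G2 and mitosis moved with the replication genes. Of 25 such genes 24 were tested, and 17 fell (70.8%), 0 rose and 7 were not called, with a median of -0.20. Of all tested genes, 16.9% were called lower and 16.2% higher. The shares given above for genes between 56.8 and 122 CPM do not cover many G2/M genes, such as TPX2 (640 CPM with PBS) and MKI67 (669 CPM). By DESeq2 and by limma-voom 17 fell and 0 rose, and no positive fold change had an unadjusted p under 0.05. The count that fell was 14 with the trend over expression level removed, 15 without PBS replicate 1 and 19 with the GC trend removed. NUSAP1, with 5 to 12 counts per library, was left out by the filter. Their summed level was 5651 to 5699 CPM with PBS and 4735 to 4813 CPM with TPBC-PEG. ANLN, the cytokinetic scaffold anillin, gave 558, 549.9 and 573 CPM against 401, 387 and 409 CPM (-0.49 ± 0.036), and the spindle motor gene KIF11 fell at -0.41 ± 0.038. CCNB2, CDC25C, BUB1B, TTK, CENPF and ECT2 were not called. PRC1 was not called either, but it had only 2 to 18 counts per library, and other annotated genes share 58.4% of its exon length. Whether the change in these genes has a part in that of the replication genes was not tested.

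**Figure D5:**
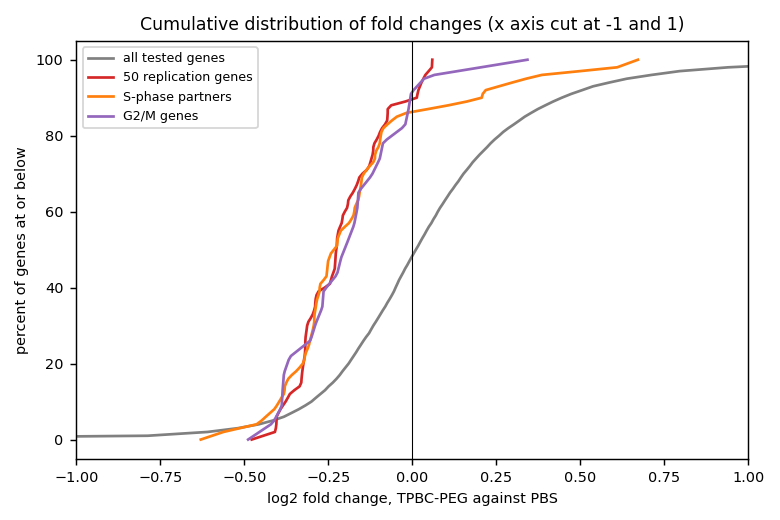
Percent of genes at or below each log2 fold change, TPBC-PEG against PBS, for the 50 replication genes, the 50 S-phase partners, the 24 tested G2/M genes and all 15846 tested genes. The 3 cell cycle curves lie left of that of all genes over most of their length, with medians of -0.23, -0.23 and -0.20 against 0.01. Among these 3, only the partner curve reaches past 0.5 on the right, through E2F7 and POLD4.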

How the data were processed

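The authors deposited raw read counts per gene for the 6 libraries. The submitters' processing notes name HISAT2 and the GRCh38 build. Which version was run, which program and annotation counted the reads, and how strand and multiply aligned reads were treated is not given in the sources used here. These 50 genes, the other gene lists and the rule for genes given library by library were chosen with earlier results of these data known.

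Groups and replicate numbers came from the sample titles. Counts were analysed with edgeR 4.0.16 in R 4.3.3: TMM scaling, filterByExpr (minimum count 10, minimum total 15), a robust quasi-likelihood fit on group, and Benjamini-Hochberg adjustment over 15846 genes, called at 0.05. CPM are TMM-scaled. Symbols came from the gene name table, and coordinates, exon lengths and overlaps from GENCODE 29 on GRCh38. Genes given by library were the largest called change and the most abundant gene of each role, uncalled genes whose groups did not overlap, and 13 genes fixed by name; POLA1, RFC4 and the RFC2 to RFC4 ratio were added after their values were seen. Partners given were up to 5 per direction (1 is not reported here), and G2/M genes up to 2. Alternatives were 3 scalings, 2 filters, DESeq2 1.42.0, limma-voom (limma 3.58.1), a replicate block, GC and expression trends removed, a test against 1.5-fold and leaving out each library. On simulated counts with 200 of 15846 genes changed, 64% of changes of 1.25-fold and 100% of changes of 1.5-fold were recovered, and 9 of 191 calls were false. In the data 33.2% of tested genes were called, so these shares may not carry over. Replicates of a group differed by more than counting noise, at 2.25 to 4.29 chi-square units per degree of freedom. A planned motif search in protein sequences was not run.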

Additional observations from a re-analysis of the deposited data

How the results depend on the processing

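The count of the 50 genes called lower was 31 to 38 under the alternatives other than the test against a 1.5-fold change, and 31 to 35 when 1 library was left out, with 0 called higher in each. For the partners, in place of 36, it ran from 31 (expression trend removed) to 37 (GC trend removed). For the G2/M genes, in place of 17, it ran from 14 to 19 under the same alternatives. Against a 1.5-fold change the counts were 0 of the 50 replication genes lower, 0 partners lower, 0 partners higher and 0 G2/M genes lower, where 14 of all tested genes (0.0884%) were called lower. That test asks for a larger change than any of the 50 showed, and at an unadjusted p under 0.05 it gave 0 of the 50 lower, 1 partner lower and 0 G2/M genes lower. Of the 34 genes called lower, 28 kept the call in every alternative but that one; ORC5, GMNN, GINS3, CLSPN, CCNE1 and E2F1 lost it in at least 1. ORC1, ORC6, CDC7, MCM8, POLD2, CHAF1B and TIMELESS were called by at least 1 alternative, among them removal of the GC trend for ORC1 (adjusted p = 0.0405), ORC6 (0.0176, also 0.0441 with DESeq2 size factors and 0.0467 with a filter of 1 CPM), CDC7 (0.00764), MCM8 (0.043) and CHAF1B (0.0358), while 9 genes were called by none. CDC6, ORC2, ORC3, POLA2 and RFC1 changed sign in some alternative and were called in none. E2F7 and ASF1A were called higher in every alternative but the 1.5-fold test. With scaling by library size alone, 1971 genes of all tested were called lower and 3213 higher, in place of 2682 and 2574, and 31 of the 50 fell. The replicate numbers did not pair the libraries: same-numbered libraries of the 2 groups correlated in their deviations at 0.0034, 0.065 and -0.015, not every library correlated best with its own number, and with the replicate block 33 of the 50 were called lower, GMNN missing the threshold (0.0522). With 3 libraries a group, changes near 1.25-fold were recovered only in part in simulated counts, which held fewer changed genes than were called in the data.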

Other observations

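Within the 50 genes, the log2 fold change was weakly ordered by base composition. The Spearman correlation across genes was -0.31 with the GC content of the longest transcript and -0.16 with the mean level with PBS. Genes of 1 sample set share libraries and are not independent replicates, and these values are descriptions. After removal of the GC trend over all genes, 38 of the 50 were called lower and the median was -0.26.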
